A study of Mus musculus with 2 samples.

Results

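Marco-type medullary sinus lymphatic endothelial cells were described in lymph nodes from below the jaw (mandibular nodes) of mice. A cell barcode was taken as Marco-type when it held at least 1 UMI of Prox1, at least 2 of Marco and at least 1 of Lyve1, with Ackr4 at 0 and Ly6c1 and Flt1 at 2 or fewer together. A UMI marks 1 captured RNA molecule. The rule was applied to barcodes that had 500 or more detected genes and no more than 10% mitochondrial UMIs. It found 314 cells of 22611 kept barcodes, 92 of 11157 in the sham library and 222 of 11454 in the library made after subarachnoid haemorrhage (SAH). The 6 genes of the rule were read from these counts, so their levels are a description.

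The nodes were taken at 24 h after SAH, bleeding around the brain modelled here by an infusion of autologous blood, or after a sham operation. Each group was 1 pool of the nodes of 20 mice, and the strain, age and genotype are not given in the sources used here. Beads depleted CD45-bearing cells, beads then enriched cells stained for CD31 or podoplanin, and these were run as 1 droplet library per group. With 1 library per group there is no replicate check and no test, and every statement compares these libraries. Anything that differed between the preparations cannot be told apart from the group. Bracketed ranges are 95% intervals that cover counting error only.

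Lymph enters a node under its capsule and leaves through the medullary sinuses, whose lining cells differ from the ceiling and floor of the subcapsular sinus. Prox1 is the transcription factor that sets lymphatic endothelial identity. Marco is a scavenger receptor that binds bacteria and particles and is best known from macrophages, and Lyve1 is a hyaluronan receptor of lymphatic vessels. Ackr4, a receptor that removes chemokines, marks the sinus ceiling, and Ly6c1 and Flt1 mark blood vessels.

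The deposited matrices held 72860197 UMIs over 13952 barcodes for sham and 78497486 UMIs over 13766 barcodes for SAH. The selected cells held 733991 UMIs in sham and 1905637 in SAH. Their median depth was 6999.5 UMIs in sham and 8486 in SAH, and their median mitochondrial share was 5.03% and 3.43%. The libraries shared 76 barcodes, of which 49 were kept and 0 were Marco-type cells. Levels are given in CPM, a gene's UMIs summed over the selected cells of a library and scaled to their UMI total, and a fold is the SAH level over the sham level.

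Of the kept barcodes, 0.825% [0.665, 1.01] were Marco-type cells in sham and 1.94% [1.69, 2.21] in SAH. The ratio of the shares was 2.35 [1.84, 3.03]. Among barcodes with Prox1, and with Ly6c1 and Flt1 at 2 or fewer together, the shares were 4.89% [3.96, 5.97] of 1880 and 12.0% [10.5, 13.5] of 1853. The ratio was 1.60 [1.19, 2.16], with 75 and 123 cells, when Ly6c1 and Flt1 both had to be 0. It was 3.10 [2.22, 4.41], with 44 and 180 cells, when at most 5% of UMIs could be mitochondrial. Ly6c1 stood at 23.2 CPM in sham and 46.7 CPM in SAH Marco-type cells, and the part of such background RNA in the shares was not tested. The bead enrichment can also set shares, so they describe the libraries and not the nodes.

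A sham Marco-type cell held 2 to 96 Marco UMIs with a median of 21.5, and a SAH cell 2 to 101 with a median of 16.5. At the edge of the rule, 10 sham and 29 SAH cells had 2 or 3 Marco UMIs, while 15 sham and 54 SAH barcodes met every other condition with exactly 1. In sham, the mannose receptor gene Mrc1 had 9 UMIs (122 CPM) just inside the edge and 0 UMIs just outside it, and 583 UMIs (135 CPM) in the 535 barcodes that met every other condition with Marco at 0. In SAH it stood at 237 CPM inside, 81.1 CPM outside and 90 CPM in the 469 such barcodes without Marco. In sham, Mrc1 thus did not separate cells at the edge from barcodes without Marco. Madcam1, a gene of the sinus floor, stood at 81.1 CPM inside and 416 CPM outside in sham, and at 143 and 309 CPM in SAH. In the blood endothelial gate, 1.49% of sham and 3.99% of SAH barcodes had any Marco UMI, and 0.158% and 0.243% had at least 2. Summed over the selected cells, Marco stood at 3389.7 CPM in sham and 2586 in SAH, Lyve1 at 2481 and 4297, and Prox1 at 527 and 602.

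**Figure D1:**
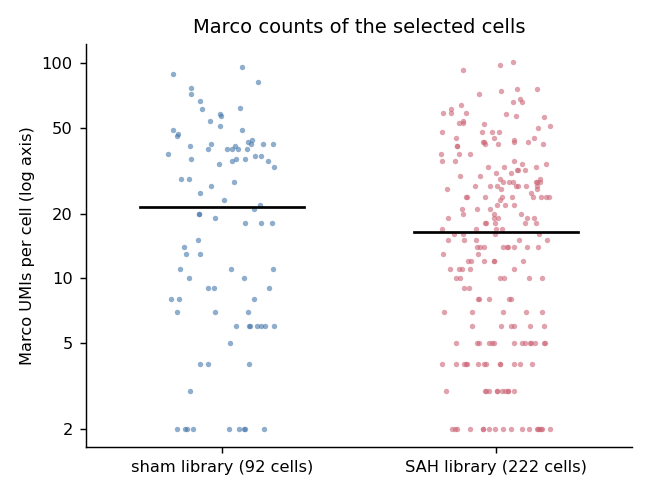
Marco UMIs per cell on a log axis for the 92 sham and 222 SAH cells; each point is 1 cell, spread sideways for visibility, and the bar is the median. The medians are 21.5 and 16.5, and both libraries reach from 2 to about 100.

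The Marco-type marker list also holds Mrc1, Clec4g, F8 and Reln, which the rule did not use. That list was chosen with earlier results of these data known, so the marker levels are a description and no independent check. The comparison set was the other Prox1-positive barcodes, with Marco at 0 and Ly6c1 and Flt1 at 2 or fewer (1736 sham and 1470 SAH). Mrc1 stood at 177 CPM in sham and 225 CPM in SAH Marco-type cells, 3.55-fold and 6.36-fold above that set. Clec4g, a lectin of sinus endothelium, stood at 91.3 and 137 CPM, 3.36-fold and 4.06-fold above it. F8, which encodes coagulation factor VIII, stood at 811 and 819.7 CPM, 3.03-fold and 2.81-fold above it. Reln, which encodes the secreted protein reelin, stood at 30 and 80.3 CPM, at 1.36-fold [0.839, 2.10] and 2.01-fold [1.67, 2.42] of its level there. Mrc1, Clec4g and F8 were thus higher in both libraries, while the sham interval for Reln included 1. That set has no Lyve1 or Ackr4 condition. Against barcodes that met every other condition with Marco at 0, the differences in Mrc1, Clec4g and F8 were smaller. Mrc1 stood there at 135 CPM in sham and 90 CPM in SAH, Clec4g at 55.7 and 73.2, and F8 at 390 and 401. Reln was lower in sham Marco-type cells than in such barcodes, at 30 against 55.4 CPM, and stood at 80.3 against 67.9 CPM in SAH. At least 2 of these 4 markers were seen in 69.6% of sham and 81.5% of SAH cells. Of the 3 markers of another sinus type, Ptx3 was seen in 3 sham and 6 SAH cells and Itih5 in 13 and 33, both below their level in the comparison set. Kcnj8, the other one, was seen in 21 and 48 cells, at 1.99-fold [1.48, 2.62] and 1.08-fold [0.808, 1.41] of its level there.

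After every cell was thinned to 3000 UMIs, which left out 5 sham and 10 SAH Marco-type cells, Mrc1 was seen in 36.8% of sham and 40.6% of SAH Marco-type cells. In the blood endothelial gate, which should lack it, these shares were 0.216% and 0.217%. Unthinned, it was seen in 58.7% and 68.9% of Marco-type cells. The median depth of the blood endothelial gate before thinning was 4311 UMIs (sham) and 4334 UMIs (SAH). Thinning left out 1553 of its 5711 sham barcodes and 1610 of its 5758 SAH barcodes.

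Macrophages also carry Marco and Mrc1. Their list of 16 markers summed in Marco-type cells to 16.3 CPM (sham) and 29.9 CPM (SAH), with 7 and 10 markers seen. Adgre1, Cd163, Fcgr1, Itgam and Cd5l had 0 UMIs in both libraries, which allows up to 4.09 CPM in sham and 1.57 CPM in SAH. Csf1r, the growth factor receptor of macrophages, had 0 and 3 UMIs, and Ptprc, which encodes CD45, had 1 and 1. Of the neutrophil list 0 of 5 markers were seen in sham and 3 in SAH, summing to 3.15 CPM.

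Other cells' RNA was present in part of the set. Sham held more fibroblast RNA, and SAH more RNA of the sinus ceiling list and of several blood vessel genes. The fibroblast list summed to 2158 CPM in sham and 942 CPM in SAH, and 18.5% of sham against 7.21% of SAH cells held at least 20 UMIs of Dcn, the proteoglycan decorin. Cell cycle genes summed to 271 and 16.8 CPM, with at least 10 such UMIs in 3 sham cells and 1 SAH cell. Floor genes, read as Madcam1 or Ccl20 at 2 or more UMIs, were present in 26.1% [17.5, 36.3] of sham and 13.1% [8.93, 18.2] of SAH cells. The sinus ceiling list, Ackr4 left out, summed to 125 CPM in sham and 225 CPM in SAH. In the ceiling gate it summed to 2012 and 2188 CPM, and in the blood endothelial gate to 970.5 and 1242. Its gene Cd36 stood at 9.54 and 53.5 CPM (5.61-fold [2.63, 14.3]) and Cav1 at 45.0 and 74.5 CPM (1.66-fold [1.13, 2.50]). The intervals of Foxp2 (1.29-fold) and Btnl9 (2.57-fold) included 1. The blood endothelium list summed to 1035 and 1414 CPM, of which Plvap, the diaphragm gene also expressed by sinus endothelium, held 978 and 1255. Of its other genes, Aqp1 stood at 38.1 CPM in sham and 118 CPM in SAH, Emcn at 5.45 and 16.3 and Cd34 at 10.9 and 21.0. The salivary gland list summed to 88.6 and 142 CPM. Glycam1, a mucin of high endothelial venules, stood at 2091 and 1917 CPM. The floor gate held more of it (24852 and 18585 CPM) than the blood endothelial gate (8844 and 10026). Marco-type cells with floor genes held it at 4563 and 8338 CPM, and those without at 493 and 711. Of the other venule genes Ackr1 was the highest, at 6.81 and 16.3 CPM. Scrublet called 5 sham and 11 SAH cells doublets. The part of these RNAs in the folds below was not tested as a cause. Values without the cells that carry floor genes are given beside several of the results that they change. No such values are given for ceiling genes, although Nts, Sncaip and Parm1 stood higher in the ceiling gate than in Marco-type cells. List counts without floor genes, or without fibroblast or cell cycle RNA, lack the share of all genes past 1.5-fold at that setting. They are thus not set against a background.

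Beyond the markers, 16 of 10658 genes (0.150%) were at least 4-fold higher and 143 (1.34%) at least 4-fold lower in both libraries than in the other Prox1-positive barcodes. These cells were chosen on the same counts, so the differences are a description. The highest by the fixed rule was Clec1b, which encodes the podoplanin receptor CLEC-2, at 53.1 CPM in sham and 223 CPM in SAH against 6.42 and 16.4 in the comparison set. Xlr5c, an X-linked lymphocyte-regulated family gene whose close copies can share reads, stood at 121 and 88.7 CPM against 14.8 and 11.5. Hpse, the heparan sulfate cutting enzyme heparanase, was 4.67-fold and 4.76-fold higher. Signalling genes among the 20 highest were the Wnt receptor Fzd1 (4.63-fold in sham and 5.97-fold in SAH), the secreted Wnt regulator Sfrp1 (4.12-fold and 4.11-fold) and the prostaglandin E2 receptor Ptger4 (3.81-fold and 3.53-fold). The decoy receptor Il13ra2, which binds interleukin 13, was 6.86-fold and 4.03-fold higher, and the NAD-consuming enzyme Cd38 3.93-fold and 4.68-fold. Some of these genes were also present in other gates. Marco-type cells held Fzd1 at 149 and 162 CPM, Ptger4 at 117 and 169, Hpse at 88.6 and 128 and Cd38 at 109 and 154. In the floor gate Fzd1 stood at 87.6 and 58.7 CPM and Ptger4 at 69.3 and 109. In the fibroblast gate Fzd1 stood at 84.8 and 41.8 CPM and Hpse at 77.7 and 96.0. In the blood endothelial gate Cd38 stood at 124 and 112 CPM.

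Both chains of the platelet-type integrin were among these genes. Itga2b stood at 635 CPM in sham and 1154 CPM in SAH, 5.34-fold and 3.51-fold above the comparison set, and Itgb3 at 70.8 and 82.4 CPM, 4.00-fold and 3.23-fold above it. In barcodes that met every other condition with Marco at 0, Itga2b stood at 279 CPM in sham and 693 CPM in SAH. At 3000 UMIs per cell Itga2b was seen in 74.7% of sham and 93.9% of SAH Marco-type cells, against 1.59% and 5.38% of the blood endothelial gate. In the floor gate Itga2b, which is also on the floor marker list, was seen in 48.1% and 72.5% of cells. Itga2b was also higher in SAH in the other sinus cells, 5.63-fold in the ceiling gate and 2.36-fold in the floor gate. The lowest genes included Klrb1f at 2.72 and 1.05 CPM against 129 and 123, the metalloproteinase inhibitor Timp4 at 20.4 and 53.5 CPM against 414 and 489, and the thrombin receptor F2r at 42.2 and 45.1 CPM against 340.3 and 284. Ntn1, the guidance factor netrin-1, had 0 UMIs in sham and stood at 1.57 CPM in SAH, against 52.5 and 60.7 CPM. Klrb1f, Timp4 and F2r were higher in the ceiling gate than in the floor gate in both libraries, whereas Coch, which encodes cochlin, was mostly a floor gene, at 1261 and 1218 CPM there and 55.9 and 52.0 CPM in Marco-type cells.

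The next question was how the Marco-type cells of the SAH library differed from those of the sham library. Most members of the interferon-response and scavenger receptor lists were higher in SAH, and Cxcl1, Il4i1 and Nfkbia were among the lower genes. Of 4357 genes with at least 100 UMIs, 550 (12.6%) were at least 1.5-fold higher and 299 (6.86%) at least 1.5-fold lower, and the median log2 fold was 0.02. The whole counting interval lay beyond 1.5-fold for 158 higher and 66 lower genes. The named genes were the 15 highest and 15 lowest by a size rule without that UMI minimum, and 6 of the lowest (Fgf23, A2m, Lrp2, Nt5dc2, Pthlh and Fam49b) had fewer than 100 UMIs.

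**Figure D2:**
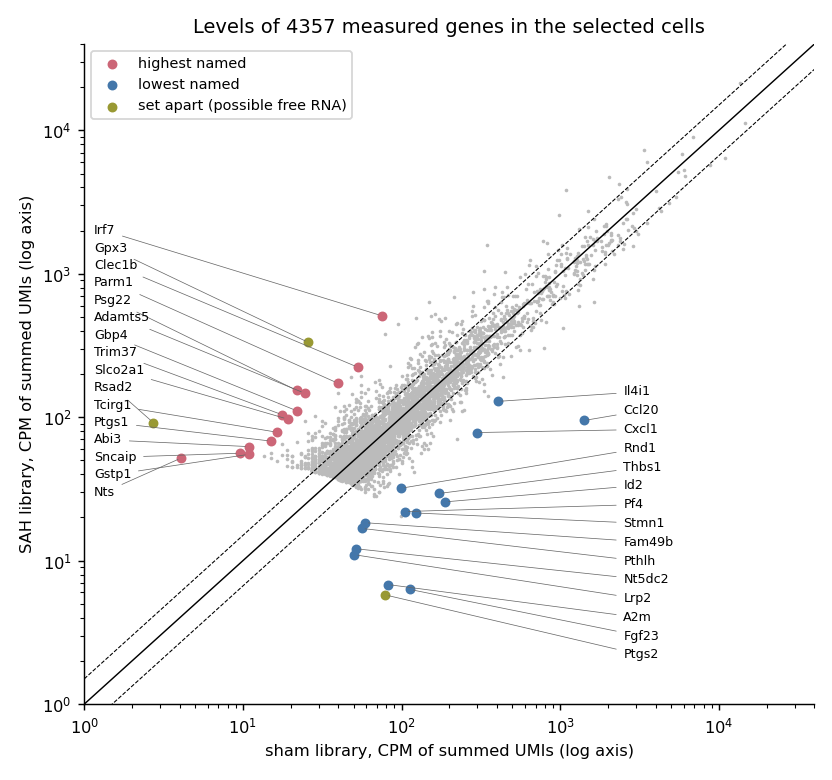
Level of each of 4357 measured genes in the Marco-type cells, sham against SAH, in CPM on log axes; the solid line marks equal levels, the dashed lines 1.5-fold, and coloured points the genes named by the size rule or set apart, 7 of which have under 100 UMIs and lie outside the 4357. Irf7 lies at 74.9 CPM in sham and 510.1 CPM in SAH, and Ccl20 at 1421 and 95 CPM.

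Irf7, the transcription factor that amplifies type I interferon, had 55 UMIs in 28 sham cells and 972 UMIs in 184 SAH cells. Its level was 74.9 CPM in sham and 510.1 CPM in SAH, a fold of 6.81 [5.19, 9.10]. On the interferon-stimulated list, 23 of 31 measured genes passed 1.5-fold upward, 1 passed it downward and the list's median log2 fold was 0.91, beside 12.6% higher genes and a median of 0.02 over all measured genes. Ifit1, whose protein binds foreign RNA, stood at 39.5 and 147 CPM, a fold of 3.73 [2.54, 5.68]. The ubiquitin-like modifier Isg15 stood at 177 and 470.2 CPM (2.65-fold [2.21, 3.22]) and the membrane protein gene Ifitm3 at 3391 and 7257 CPM (2.14-fold [2.05, 2.23]). Lgals3bp, a secreted glycoprotein gene, was 3.30-fold [2.71, 4.05] and Ifi27l2a 3.54-fold [3.29, 3.81] higher. Ifi27 was the lower gene, at 248 and 112 CPM.

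The interferon-stimulated RNA was spread over the cells. Per 3000 UMIs, a sham Marco-type cell held a median of 22 UMIs of the list (quartiles 16.5 and 33.5, 87 cells) and a SAH cell 54.5 (quartiles 39.0 and 72.2, 212 cells). The upper sham quartile thus lay under the lower SAH quartile. The medians were 28.0 and 55.0 in the ceiling gate (Prox1-positive barcodes with Ackr4 at 2 or more and Marco at 0) and 26.0 and 46.0 in the floor gate (with Madcam1 at 2 or more, and Ackr4 and Marco at 0). These are descriptions of cells within 1 library per group.

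**Figure D3:**
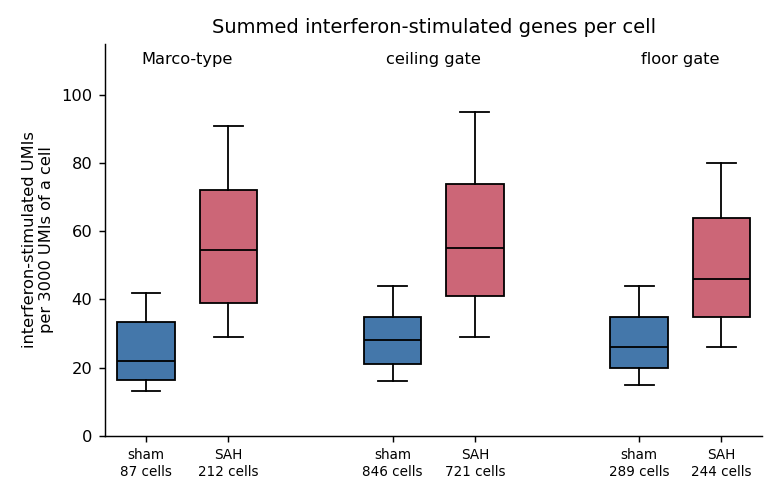
UMIs of the interferon-stimulated list per 3000 UMIs of a cell, by library, in Marco-type cells and in the ceiling and floor gates; boxes span the quartiles, the line is the median and whiskers run from the 10th to the 90th percentile of cells. The Marco-type medians are 22 in sham and 54.5 in SAH.

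GTPases that interferon gamma induces, which act on membranes around intracellular pathogens, were higher as a list, with 12 of 13 at least 1.5-fold higher, 0 lower and a median log2 fold of 1.14. Gbp4 had 16 UMIs in sham and 212 in SAH, 21.8 and 111 CPM, a fold of 5.10 [3.07, 9.09]. Gbp2 stood at 55.9 and 193 CPM (3.45-fold [2.49, 4.89]), Iigp1 at 283 and 741 CPM (2.61-fold [2.26, 3.04]), Irgm1 at 51.8 and 117 CPM (2.26-fold [1.60, 3.28]) and Igtp at 53.1 and 129.6 CPM (2.44-fold [1.74, 3.51]). The transcription factor Irf8, at 448 and 422 CPM, was within the limit. Close copies in the GBP and IRG families can share reads, so the split between members is uncertain. With Ly6c1 and Flt1 at 0, 8 of these genes were past 1.5-fold. Only 2814 of all genes had at least 100 UMIs at that setting, and 12.5% of those were higher.

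Promoters of these genes were searched for the interferon-stimulated response element, because members of both lists were higher together. The motif was GAAANNGAAA, on both strands, in the 250 bases before each RefSeq gene start of build GRCm38, the assembly also called mm10. It was present for 936 of 27025 genes (3.46%) and for 136 of the 3414 measured genes with an entry (3.98%). On the lists it was present for 8 of the 23 interferon-stimulated genes with an entry (34.8%). For the interferon gamma GTPases it was present for 7 of the 10 with an entry (70.0%). Of the 15 highest named genes, 1 of the 9 with an entry held it, and of the 15 lowest 0 of 9. The promoter of Irf7 held no match in this window, and Gbp4 had no entry. The AP-1 motif TGANTCA, searched the same way, was present for 7.82% of all genes and 5.51% of the measured genes. It was present for 21.7% of the interferon-stimulated and 20.0% of the interferon gamma GTPase genes. A match is a run of letters, not a shown binding site. The list shares rest on the lists and the reference sequence, and do not bear on the difference between the libraries. The sequences nearest the start for 4 of the higher genes are shown, 5′ to 3′ on the gene's strand, with the matches in capitals.
Ifit1: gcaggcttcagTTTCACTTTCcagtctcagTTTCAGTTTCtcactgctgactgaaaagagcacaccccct
Gbp2: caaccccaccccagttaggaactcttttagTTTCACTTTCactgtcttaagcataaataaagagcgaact
Igtp: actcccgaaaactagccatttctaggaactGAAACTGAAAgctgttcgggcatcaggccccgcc
Irgm1: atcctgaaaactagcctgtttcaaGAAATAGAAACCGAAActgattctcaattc
They lie at chr19:34640774-34640843 on the plus strand (Ifit1), chr3:142620574-142620643 on the plus strand (Gbp2), chr11:58199492-58199555 on the plus strand (Igtp) and chr11:48871421-48871474 on the minus strand (Irgm1). Ifit1 held 2 separate matches, Irgm1 held 2 that overlap, and Gbp2 and Igtp held 1 each. The match nearest the gene start began 85 bases before it for Ifit1, 59 for Gbp2, 34 for Igtp and 24 for Irgm1.

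Antigen presentation by MHC class I was higher for 8 of 20 measured genes and lower for 0, with a median log2 fold of 0.53. In cells without floor genes 12 were higher, a count given without the share of all genes in that subset. The non-classical heavy chain H2-T23 stood at 328 CPM in sham and 1042 CPM in SAH (3.17-fold [2.77, 3.64]), and the immunoproteasome subunit Psmb8 at 353 and 650.2 CPM (1.84-fold [1.61, 2.11]). The shared light chain B2m stood at 3522 and 6012 CPM (1.71-fold [1.64, 1.78]), whereas the classical heavy chain H2-K1 stood at 6038 and 5259 CPM (0.871-fold [0.841, 0.903]). Heavy chain genes are near-identical in parts, so their split is uncertain. Of MHC class II genes 2 were measured and 0 passed 1.5-fold. The checkpoint ligand Cd274 stood at 49.0 and 89.7 CPM (1.83-fold [1.27, 2.70]).

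Receptors that take up ligands from lymph were higher, with 10 of 16 measured scavenger and lectin receptor genes at least 1.5-fold higher, 0 lower and a median log2 fold of 0.86, Marco itself left out. Clec1b had 39 UMIs in 24 sham cells and 425 UMIs in 133 SAH cells, a fold of 4.20 [3.02, 5.99]. The hyaluronan receptor Stab2 stood at 199 and 398 CPM (2.00-fold [1.67, 2.40]), its relative Stab1 at 389.7 and 809.7 CPM (2.08-fold [1.83, 2.37]) and the class A scavenger receptor Msr1 at 383 and 728 CPM (1.90-fold [1.67, 2.17]). Fcgrt, the antibody recycling receptor, stood at 162 and 328 CPM (2.02-fold [1.66, 2.48]). Mrc1 and Scarf1 stayed within 1.5-fold, at 1.27 [1.04, 1.56] and 0.958 [0.730, 1.27]. Without the cells that carry floor genes 8 genes of this list passed 1.5-fold, and 7 without those that carry fibroblast or cell cycle RNA. Per 3000 UMIs the list's median was 9 UMIs in a sham and 15.0 in a SAH Marco-type cell, 12.0 and 16 in the ceiling gate and 5 and 7 in the floor gate.

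Lysosome and endocytosis genes were nearer the background, with 6 of 29 higher, 0 lower and a median log2 fold of 0.30. The highest were the progranulin gene Grn at 282 and 598 CPM (2.12-fold [1.83, 2.47]) and the protective protein Ctsa (1.92-fold [1.35, 2.79]). Tcirg1, a subunit of the proton pump that acidifies lysosomes and not on that list, had 12 and 150 UMIs (4.81-fold [2.68, 9.53]).

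Lymphatic identity genes were higher for 7 of 22 and lower for 2, with a median log2 fold of 0.33. The VEGF-C receptor Flt4 stood at 163 CPM in sham and 525 CPM in SAH (3.21-fold [2.65, 3.91]), and the vessel glycoprotein Mmrn1 at 134 and 362 CPM (2.71-fold [2.19, 3.38]). The partner factor of Prox1, Nr2f2, was within the limit, at 914 and 876 CPM. Among endothelial receptors and junction genes, endoglin (Eng) stood at 155 and 396 CPM (2.55-fold [2.09, 3.13]) and claudin-5 (Cldn5) at 777 and 1681 CPM (2.16-fold [1.98, 2.37]), beside 8 higher and 5 lower of 22 growth factor genes and 3 higher and 1 lower of 17 junction genes.

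Complement genes were higher for 6 of 12 and lower for 0, with a median log2 fold of 0.59. C2, a protease of the classical pathway, stood at 219 and 449 CPM (2.05-fold [1.73, 2.44]). The central component C3 stood at 1640.3 and 2413 CPM (1.47-fold [1.38, 1.57]). Serping1 and C4b were over 10 times higher in another cell type's gate, and the part of free RNA in their counts was not tested.

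Several named genes of small signalling and enzyme families were far higher in SAH. Psg22, of the pregnancy-specific glycoprotein family, had 16 UMIs in 12 sham cells and 293 UMIs in 107 SAH cells, 21.8 and 154 CPM (7.05-fold [4.27, 12.5]). The aggrecan-cutting protease Adamts5 had 18 and 281 UMIs (6.01-fold [3.74, 10.3]), though 5 sham cells held 77.8% of the sham UMIs. Prostaglandin genes included the transporter Slco2a1, at 19.1 and 97.1 CPM (5.09-fold [2.96, 9.49]), and the constitutive cyclooxygenase Ptgs1, at 15.0 and 68.2 CPM (4.55-fold [2.46, 9.34]). Sncaip, which encodes a synuclein partner, was 5.89-fold [2.76, 15.0], the ubiquitin ligase Trim37 5.87-fold [3.35, 11.2], the mucin-like Parm1 4.37-fold [2.99, 6.63] and the glutathione transferase Gstp1 5.06-fold [2.47, 12.0] higher. Trim37 was also 4.21-fold higher in the ceiling gate, 5.30-fold in the floor gate and 4.86-fold in the blood endothelial gate. For Gstp1 the folds in these gates were 4.03, 4.41 and 3.95. In the fibroblast gate the folds were 1.09 for Trim37 and 3.64 for Gstp1. Abi3, an actin regulator (5.73-fold [2.82, 13.6]), overlaps other genes over 75.8% of its exon bases, so reads may come from a neighbour. Psg22 and Gstp1 have close copies that can share reads. Other gates also held several of these genes. In the blood endothelial gate Slco2a1 stood at 160.1 CPM in sham and 139 CPM in SAH. Ptgs1 stood there at 54.8 and 57.8 CPM and Abi3 at 72.7 and 97.2. Adamts5 stood at 207 and 156 CPM in the fibroblast gate, against 24.5 and 147 in Marco-type cells. Sncaip stood at 136 and 159 CPM in the ceiling gate, against 9.54 and 56.1. The part of RNA from such cells in these folds was not tested.

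Nts, which encodes the peptide neurotensin, had 3 UMIs in 3 sham cells and 99 UMIs in 28 SAH cells. The levels were 4.09 and 52.0 CPM, a fold of 12.7 [4.22, 62.7]. It rested on few cells, with 56.6% of the SAH UMIs in 5 cells, and when barcodes with 1 Marco UMI were admitted its log2 fold was -0.41. In cells without floor genes it had 1 and 99 UMIs, a ratio of 27.5 [4.82, 1098].

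Chemokine and cytokine genes went both ways, with 4 of 13 higher, 2 lower and a median log2 fold of 0.08. The chemokine Ccl20, which attracts CCR6-bearing cells, had 1043 UMIs in 19 sham cells and 181 UMIs in 31 SAH cells, 1421 and 95 CPM (0.0668-fold [0.0568, 0.0783]). In sham, 5 cells held 69.7% of those UMIs, and in cells without floor genes the fold was 1.11 [0.300, 6.14], a set that excludes cells with 2 or more Ccl20 UMIs. The neutrophil chemoattractant Cxcl1 stood at 297 and 78.2 CPM (0.263-fold [0.212, 0.326]) and at 0.251-fold [0.191, 0.331] in cells without floor genes. Il4i1, an amino acid oxidase gene, stood at 406 and 129 CPM (0.318-fold [0.267, 0.378]), and 86.3% of its exon bases overlap other genes. The interferon-induced chemokines Cxcl9 and Cxcl10 went the other way, at 3.19-fold [2.70, 3.79] and 1.75-fold [1.55, 1.97], with 47.4% and 48.3% of their SAH UMIs in 5 cells. NF-kB subunits and targets had 0 of 20 higher and 3 lower genes with a median log2 fold of -0.18, among them the inhibitor Nfkbia at 1313 and 597 CPM (0.455-fold [0.417, 0.496]) and Cebpb at 792 and 305 CPM (0.386-fold [0.343, 0.434]).

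For several of the lowest genes the fold was nearer 1 in cells without floor genes (68 sham and 193 SAH). The phosphate hormone gene Fgf23 stood at 113 CPM in sham and 6.30 CPM in SAH (0.0557-fold [0.0277, 0.103]) and at 0.556-fold [0.149, 2.52] in those cells. The matrix protein gene Thbs1 was at 0.171-fold [0.123, 0.236] overall and 0.588-fold [0.362, 0.977] without floor genes, the protease inhibitor A2m at 0.0835-fold [0.0420, 0.154] and 0.371-fold [0.113, 1.30], and the small GTPase Rnd1 at 0.322-fold [0.225, 0.458] and 0.775-fold [0.451, 1.39]. Id2, which blocks DNA binding by bHLH partners, was at 0.137-fold [0.0966, 0.191] overall and 0.410-fold [0.221, 0.776] there, and the tubulin regulator Stmn1 at 0.175-fold [0.118, 0.257] and 0.425-fold [0.222, 0.835]. For Stmn1, 5 sham cells held 80.0% of the UMIs. Nt5dc2 was at 0.233-fold [0.133, 0.401] and 0.486-fold [0.190, 1.34].

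Other low genes kept their size in that subset. The endocytic receptor megalin, Lrp2, was at 0.219-fold [0.122, 0.383] overall and 0.167-fold [0.0643, 0.407] without floor genes, and Pthlh, a hormone-like peptide gene, at 0.301-fold [0.183, 0.489] and 0.291-fold [0.155, 0.547]. Fam49b was at 0.314-fold [0.195, 0.501] and 0.248-fold [0.139, 0.441]. The platelet chemokine gene Pf4 stood at 105 and 22 CPM (0.210-fold [0.141, 0.310]) and at 0.195-fold [0.0909, 0.405] in that subset, while the other 3 platelet markers had 0 UMIs in both libraries.

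Of the genes set apart because another cell type's gate held over 10 times their level, Gpx3, a secreted glutathione peroxidase, had 19 UMIs in 13 sham cells and 633 UMIs in 123 SAH cells. Its levels were 25.9 and 332 CPM, a fold of 12.8 [8.15, 21.5], against 1.76 in the ceiling gate and 1.13 in the floor gate. In the fibroblast gate it stood at 312 CPM in sham and 741 CPM in SAH, a fold of 2.37. In the blood endothelial gate it stood at 5.40 and 23.9 CPM, a fold of 4.43. In Marco-type cells without floor genes the fold was 21.1 [10.6, 49.0]. The antiviral enzyme gene Rsad2 had 2 and 175 UMIs, with 69.1% of the latter in 5 cells, and the inducible cyclooxygenase Ptgs2 had 58 and 11 UMIs (0.0730-fold [0.0346, 0.141]).

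**Figure D4:**
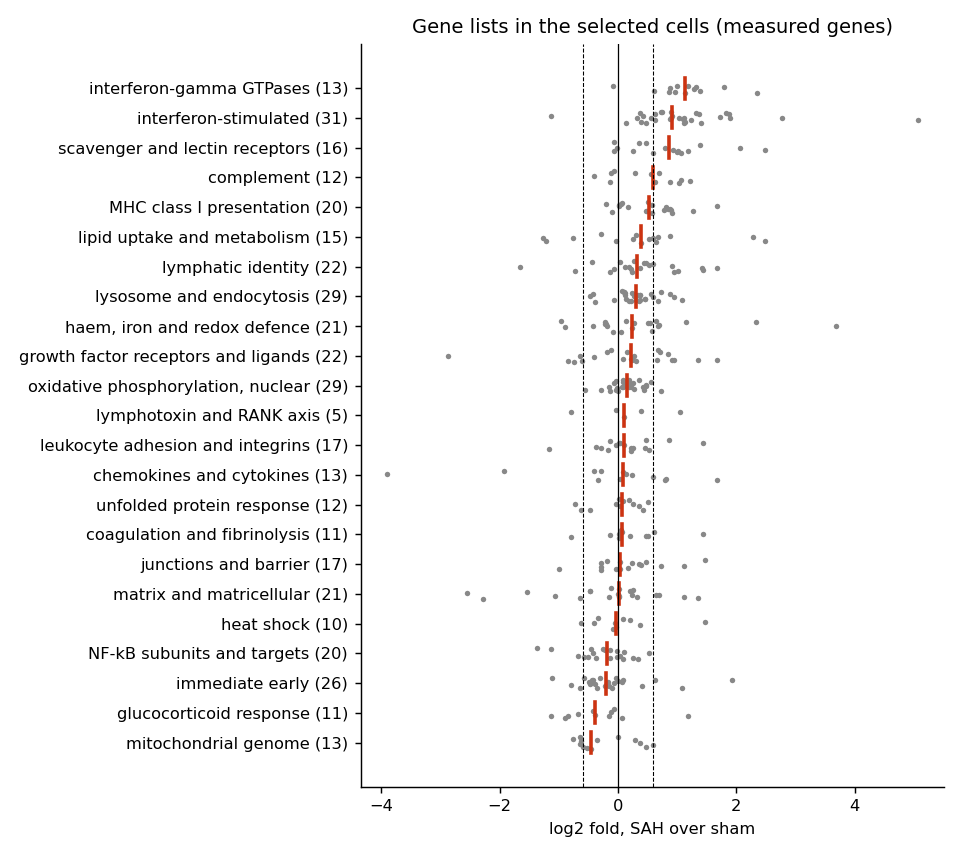
log2 fold, SAH over sham, in Marco-type cells for each measured gene of the lists with at least 5 such genes; grey points are genes, the red bar is the list's median, dashed lines mark 1.5-fold, and numbers in brackets are measured genes. The medians run from -0.46 for the mitochondrial genome to 1.14 for the interferon gamma GTPases.

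Genes of haem, iron and redox handling were higher for 6 of 21 and lower for 2, with a median log2 fold of 0.24. The ferritin heavy chain Fth1 stood at 13661 CPM in sham and 21456 CPM in SAH (1.57-fold [1.54, 1.61]), and the metallothionein Mt2 at 490.5 and 266 CPM (0.541-fold [0.472, 0.621]). Lipid genes were split, with 6 of 15 higher and 3 lower. The fatty acid carrier Fabp4, also over 10 times higher in another gate, stood at 79.0 and 383 CPM, and the lipoprotein receptor Vldlr at 72.2 and 29.9 CPM (0.414-fold [0.280, 0.614]). Matrix genes had 4 of 21 higher and 5 lower, and fibroblast RNA, given above, was higher in sham: Col1a1 and Col3a1, with 77.3% and 86.7% of their sham UMIs in 5 cells, were among the lower genes. Leukocyte adhesion and integrin genes had 2 of 17 higher and 1 lower, with Itga2b at 1.82-fold [1.64, 2.01]. Coagulation genes had 2 of 11 higher and 1 lower, and F8 was at 1.01-fold [0.919, 1.11].

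Immediate early genes, which also respond to tissue digestion, had 3 of 26 higher and 3 lower with a median log2 fold of -0.21. The split was 0 higher and 5 lower with Ly6c1 and Flt1 at 0, and 1 higher and 8 lower in cells without floor genes. Jund stood at 1601 and 920.4 CPM (0.575-fold [0.534, 0.620]) and Klf4 at 467 and 717 CPM (1.53-fold [1.36, 1.73]). Glucocorticoid response genes had 1 of 11 higher and 4 lower (median log2 fold -0.38), and heat shock genes 1 of 10 each way (-0.04). The unfolded protein response had 0 of 12 higher and 2 lower (0.07), lymphotoxin and RANK genes 1 of 5 each way (0.11), and checkpoint genes 2 of 3 higher. Nuclear genes of oxidative phosphorylation had 1 of 29 higher and 0 lower (0.16), and 5 higher in cells without floor genes, whereas 5 of 13 genes of the mitochondrial genome were lower and 1 higher (-0.46), beside the lower median mitochondrial share of SAH cells given above.

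The folds were set beside those of the ceiling gate (871 sham and 733 SAH barcodes) and the floor gate (289 and 248). Of 4324 genes measured in both, 51 (1.18%) had a fold at least 2 times that of the ceiling gate and 28 (0.648%) at most 1 in 2 of it. Against the floor gate the counts were 62 (1.46%) and 40 (0.940%) of 4257. For Irf7 the fold divided by that of the ceiling gate was 0.978 [0.729, 1.31], and divided by that of the floor gate 1.77 [1.28, 2.45]. Psg22 had a fold 5.20 [3.05, 8.87] times that of the ceiling gate and 3.08 [1.61, 5.90] times that of the floor gate. In the blood endothelial gate Psg22 was 5.24-fold [2.72, 11.1] higher in SAH, on 11 and 56 UMIs, and the ratio of folds was 1.35 [0.593, 3.05]. For Adamts5 these ratios were 4.98 [3.05, 8.13] and 6.49 [3.48, 12.1], for Slco2a1 3.20 [1.83, 5.61] and 6.92 [3.18, 15.1], for Gbp4 2.38 [1.38, 4.08] and 4.21 [2.33, 7.59], and for Parm1 3.17 [2.16, 4.66] and 2.58 [1.57, 4.25]. A larger fold did not mean a higher level. Parm1 stood at 278 CPM in sham and 383 CPM in SAH in the ceiling gate, against 39.5 and 173 in Marco-type cells. In the blood endothelial gate Gbp4 stood at 81.6 and 159.8 CPM, against 21.8 and 111 in Marco-type cells. Among the lower genes, A2m had a ratio of 0.237 [0.0869, 0.647] to the ceiling gate and 0.156 [0.0779, 0.312] to the floor gate. The interval of a ratio covers counting error only and is no test between cell types.

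**Figure D5:**
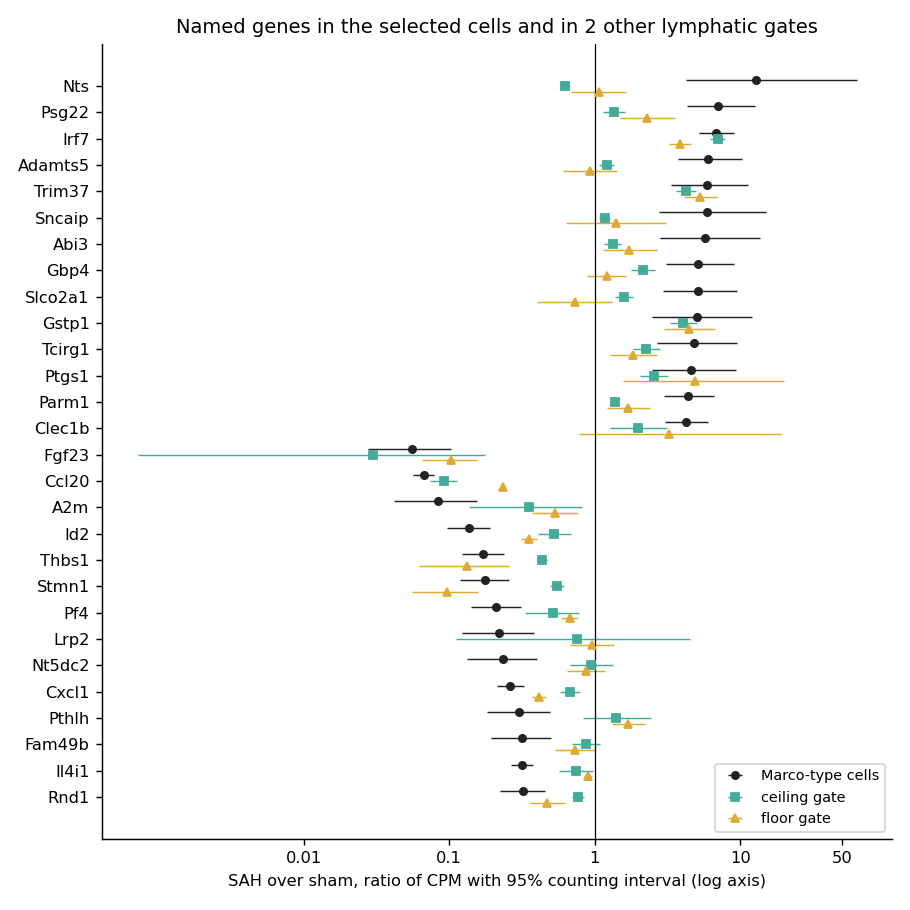
SAH over sham ratio of CPM for the named genes in Marco-type cells, the ceiling gate and the floor gate on a log axis; bars are 95% counting intervals. Irf7 lies at 6.81 in Marco-type cells and 6.96 in the ceiling gate, while Psg22 lies at 7.05 and 1.36.

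The named genes lie on many chromosomes of mm10. Marco itself is at chr1:120474538-120505024, Irf7 at chr7:141262706-141266481, Psg22 at chr7:18718090-18727248, Adamts5 at chr16:85856173-85901828, Slco2a1 at chr9:102988712-103096002 and Ccl20 at chr1:83116766-83119167. All are annotated as protein-coding genes in the GENCODE annotation of that build.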

How the data were processed

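Single-cell RNA was counted in 2 libraries, 1 per group. Per the labels' protocols, RNA molecules were tagged at the 5′ end on the Chromium platform. Cell Ranger 5.0, STAR, Seurat 3.0.2 and mm10 are listed in the submitters' processing notes, without their roles. The matrices that the authors deposited hold unnormalized UMI counts, by barcode and gene. Annotation release and intron counting are not given in the sources used here. The 27998 feature rows gave 27933 symbols, and rows with the same symbol were summed.

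Members and gene lists were chosen with earlier results of these data known. Counts were summed over members. Folds have exact conditional binomial intervals, shares exact Clopper-Pearson intervals, and ratios of folds log-scale Poisson intervals. Scripts were tested on simulated data. Named genes were the 15 highest and 15 lowest log2 folds (0.5 UMIs added for ranking) with at least 50 CPM and detection in 10% of members in the higher library. Left out were the 6 rule genes, predicted genes, Xist and Y-linked genes, and genes for haemoglobins, antigen receptors, ribosomal proteins and the mitochondrial genome. A gene over 10 times higher in another cell gate, with at least 20 UMIs there, was set apart as possible free RNA, and 3 are named. That UMI minimum was added after the data were seen. From each list up to 6 genes by absolute log2 fold were named, and further genes named for comparison were chosen after their values were seen. Against other Prox1-positive barcodes the 20 highest and 10 lowest genes of both libraries were taken. Doublets called by Scrublet (scanpy 1.11.5, expected rate 0.1) were kept, since the rule does not name them. Gene positions are from GENCODE vM21 and promoters from RefSeq. Python 3.11.15, numpy 2.4.6, scipy 1.17.1, pandas 2.3.3 and matplotlib 3.10.9 were used. Some genes that these rules select are not reported here.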

Additional observations from a re-analysis of the deposited data

Results flagged for a closer look

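Nts was 12.7-fold higher in SAH than in sham Marco-type cells but lower in the ceiling gate, where it stood at 307 CPM in sham and 192 CPM in SAH (0.625-fold [0.582, 0.671]). The Marco-type fold rests on 3 sham and 99 SAH UMIs. Pthlh was at 0.301-fold in Marco-type cells, with 41 and 32 UMIs, but at 1.70-fold in the floor gate. These opposite directions between cell gates were not tested, since each group is 1 library.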

How the results depend on the processing

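No paired analysis was possible because each group is 1 library. The ratio of member shares moved from 2.35 to 3.10 at 5% mitochondrial UMIs and to 1.60 with Ly6c1 and Flt1 at 0. The 550 higher genes became 352 with Ly6c1 and Flt1 at 0, 1580 with at least 20 UMIs, 2228 with 1 UMI in each library and 214 after thinning to 3000 UMIs. The 299 lower genes became 1020, 2132 and 108 with at least 20 UMIs, 1 UMI in each library and thinning. These settings also change how many genes are measured, from 1551 after thinning to 11997. Thinning left 9 genes at least 4-fold above the other Prox1-positive barcodes in both libraries, instead of 16. It left 15 and 8 genes, instead of 51 and 28, beside the ceiling gate, and 22 and 18, instead of 62 and 40, beside the floor gate.

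Nts turned to a log2 fold of -0.41 with Marco at 1 or more (3.67 as reported), and the cause was not tested. Ccl20 turned to 0.15 without cells that carry floor genes (-3.90 as reported), a set defined in part by Ccl20. Of 33 named genes, 31 kept their sign and 30 stayed past 1.5-fold in all 14 settings tried, the exceptions to the latter being Nts, Ccl20 and Rnd1. The settings without a Lyve1 condition, with Marco at 10 or more, without fibroblast or cell cycle RNA and without floor genes were chosen after seeing the data. The 92 sham cells set the precision, and a gene with few sham UMIs has a wide interval.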

Other observations

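The 15 clock genes were chosen after their values were seen, so their folds in Marco-type cells are a description. Nr1d1, a repressor of the circadian clock, stood at 24.5 CPM in sham and 94.5 CPM in SAH (3.85-fold [2.37, 6.65]). It was also 3.30-fold higher in the floor gate and 2.89-fold higher in the blood endothelial gate. The folds were smaller in the ceiling gate (1.67 [1.40, 2.00]) and the fibroblast gate (1.85 [1.66, 2.08]). Bhlhe40 stood at 373 and 197 CPM (0.529-fold [0.451, 0.620]) and Cry1 at 17.7 and 5.77 CPM (0.326-fold [0.132, 0.788], 13 and 11 UMIs). Cry2 was at 0.498-fold [0.253, 1.00], with its upper bound just under 1. Dbp was at 1.21-fold [0.877, 1.69] and Per3 at 0.914-fold [0.634, 1.34]. The hour of tissue collection in each group is not given in the labels.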
